A study of Mus musculus with 9 samples.

Results

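The transcripts of 10 genes of the cGAS-STING pathway and of the handling of cyclic GMP-AMP (cGAMP) were followed in fracture callus on day 7 after femoral fracture. They were Cgas, Sting1, Tbk1, Ikbke, Irf3, Trex1, Samhd1, Slc19a1, Lrrc8a and Stim1, taken by gene symbol from the 22054 genes of the expression table, and each was found once. Callus was taken from male C57BL/6J mice, 7 weeks old by the labels, whose femur had been broken at the midshaft and held by an intramedullary needle. Every animal received intraperitoneal injections of 200 μl each day for 1 week. The H-151 group received 750 nmol of H-151, which inhibits STING, the SR-717 group received 30 mg/kg of SR-717, an agonist of STING that does not contain nucleotides, and the PBS group received the same volume of phosphate-buffered saline. There were 3 libraries of poly(A) RNA in each of the 3 groups and no genetic change is given for any group. Unfractured or uninjected animals were not among the samples analysed here. The labels number the libraries as biological samples and do not say that each came from its own mouse or whether animals were pooled, so that p-values measure only the spread between these libraries.

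cGAS is an enzyme that binds double-stranded DNA in the cytosol and makes the second messenger cGAMP. cGAMP binds STING, a protein of the endoplasmic reticulum that then travels to the Golgi and recruits the kinases TBK1 and IKKε, which phosphorylate the transcription factor IRF3 and also feed NF-κB. The pathway is best known in macrophages, dendritic cells and other immune cells, where it induces type I interferon, and NF-κB is also required for osteoclasts to form. Both compounds bind the STING protein, and transcript levels do not measure the activity of these proteins.

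Fracture callus was a mixed tissue in these libraries. Markers of myeloid cells, neutrophils, osteoclasts, chondrocytes, osteoblasts, fibroblasts, endothelium and skeletal muscle were all detected in each of the 9 libraries. The mean log2 CPM (counts scaled to the library total) of 20 myeloid markers was 7.13, 6.80 and 6.58 with H-151, 7.42, 6.74 and 6.38 with PBS, and 8.78, 7.01 and 6.69 with SR-717 for replicates 1, 2 and 3. SR-717 replicate 1 stood apart from the other libraries on the first principal component, which held 46.6% of the variance, at 101 against 38.8 for PBS replicate 1 and -28.8 to -4.03 for the other 7. In the same SR-717 library the 8 chondrocyte markers had their lowest level, at 4.96 against 6.67 to 9.11 elsewhere, and the 12 neutrophil markers their highest, at 9.18 against 4.54 to 7.52. Totals ran from 16987398 to 23272480 expected counts per library.

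Positions of the genes are given on GRCm38. Cgas (78430526 to 78443237) and Trex1 (109057933 to 109059734) are on chromosome 9, Tbk1 (121546455 to 121586787) and Slc19a1 (77032241 to 77061002) on chromosome 10, and Ikbke (131254343 to 131279606) on chromosome 1. Irf3 (44997648 to 45002848) and Stim1 (102267806 to 102437319) are on chromosome 7, and Samhd1 (157097533 to 157135265) and Lrrc8a (30237715 to 30263790) are on chromosome 2. Trex1 overlaps Atrip and Lrrc8a overlaps Gm28035 on the same strand, so that reads shared by these pairs could have been split in counting. Irf3 overlaps Bcl2l12, Slc19a1 overlaps Col18a1, and Ikbke and Lrrc8a overlap antisense transcripts on the other strand, and whether the counting used strand is not given in the sources used here.

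Promoter sequence was read from RefSeq (GRCm38.p6) for the 10 genes except Sting1, in 11 windows that each ran from 250 bases before a transcription start to 50 bases after it. The windows were searched on both strands for the core of the interferon-stimulated response element, which is GAAA, 2 bases of any kind and GAAA, and where IRF3 and related factors bind, and for the NF-κB site. The response element core had 0 matches in the 11 windows, against a match in 3.44% of 32851 promoters of the same length. The NF-κB site matched in 1 window, at Trex1, against 8.46% of all promoters. This stretch is shown because it holds the only match, which begins at position -246 from the start and is in capitals, and the sequence is that of the minus strand at chr9:109059935-109059973.
Trex1: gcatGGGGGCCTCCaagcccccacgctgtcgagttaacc
A match describes these letters only, and binding was not measured in these samples.

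Per unit of transcript length the set spanned a wide range of abundance. In TPM (transcript counts scaled for length and library total), means over the 9 libraries were 92.0 ± 42.8 (SD, n = 9) for Samhd1, 41.6 ± 14.8 for Sting1, 40.3 ± 9.30 for Stim1, 40.0 ± 5.44 for Irf3 and 35.3 ± 13.1 for Trex1. Lower means were found for Lrrc8a at 22.9 ± 4.28, Ikbke at 17 ± 18.7, Slc19a1 at 11.7 ± 2.84, Tbk1 at 11.4 ± 3.42 and Cgas at 1.67 ± 0.474. Samhd1 was above Sting1 in 9 of 9 libraries, Trex1 was above Lrrc8a in 9 of 9, and Tbk1 was above Cgas in 9 of 9, by 6.84-fold in the means. The other neighbours in this order changed places between libraries. Sting1 was above Stim1 in 4 of 9 libraries, Stim1 above Irf3 in 5 of 9, Irf3 above Trex1 in 6 of 9, Lrrc8a above Ikbke in 7 of 9, Ikbke above Slc19a1 in 2 of 9 and Slc19a1 above Tbk1 in 7 of 9.

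The sensor was the scarcest transcript of the set and the adaptor one of the most abundant. The ratio of Sting1 to Cgas TPM was 25.4, 27.1 and 13.8 with H-151, 21.4, 24.3 and 26.9 with PBS, and 31.2, 30.1 and 25.8 with SR-717, and 45 to 110 counts per library lay behind the Cgas values. The kinases differed more between libraries. The ratio of Tbk1 to Ikbke TPM was 0.302 in SR-717 replicate 1 and 0.537 in PBS replicate 1, where Ikbke was the more abundant, and lay between 0.970 and 1.58 in the other 7. By contrast, the ratio of Samhd1 to Trex1 TPM stayed between 2.19 and 3.08 in all 9.

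**Figure D1:**
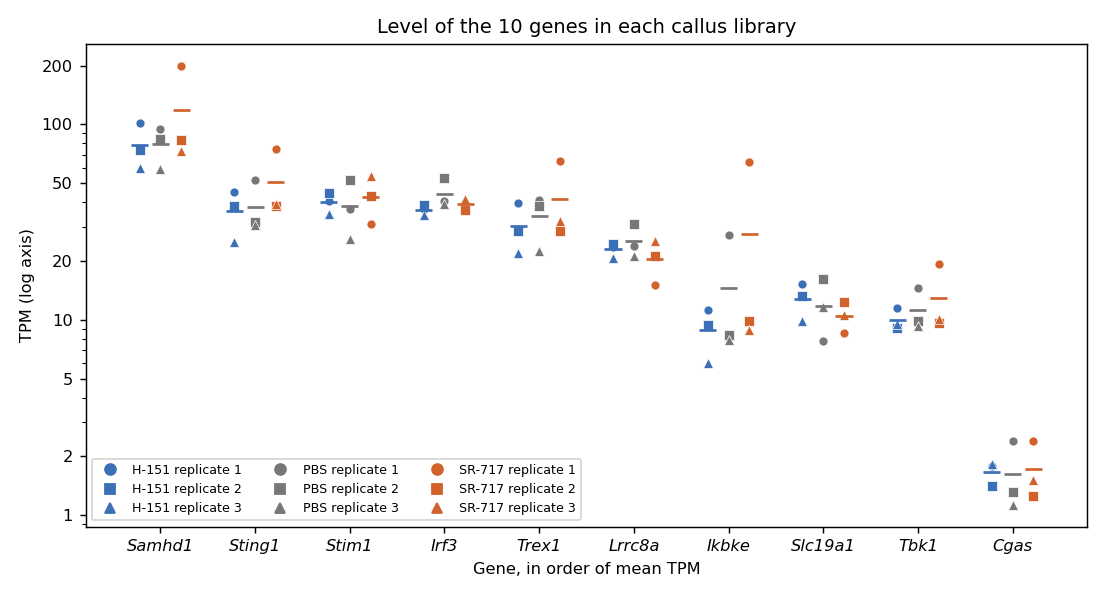
Level of each of the 10 genes in each of the 9 libraries, in TPM on a log axis, with 1 point per library (colour for the group, shape for the replicate), a bar at each group mean and the genes in order of mean TPM. SR-717 replicate 1 reaches 64.0 TPM for Ikbke, where every other library lies at 27.2 TPM or below, while the Irf3 libraries stay between 34.3 and 53.2 TPM.

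Across libraries, in CPM, Ikbke varied most, by 9.37-fold between its highest and lowest library, followed by Samhd1 at 3.31-fold, Trex1 at 3.08-fold and Sting1 at 2.97-fold. Tbk1 varied by 2.42-fold, Cgas by 2.25-fold, Stim1 by 2.05-fold, Slc19a1 by 1.89-fold, Lrrc8a by 1.71-fold and Irf3 by 1.44-fold. For 6 of the 10 genes the highest value was in SR-717 replicate 1, against 26.7% of the 14294 genes that passed the filter on low counts over all libraries.

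No gene of the set passed the test in any of the 3 comparisons. A gene was called where edgeR's quasi-likelihood test gave an unadjusted p under 0.05 and the fold change was at least 1.5, and 0 of 10 were called in SR-717 against H-151, where 0.756% of 14151 genes were, 0 of 10 in SR-717 against PBS, where 0.519% of 14070 genes were, and 0 of 10 in H-151 against PBS, where 0.426% of 14085 genes were. At an unadjusted p under 0.05, whatever the fold, the counts were also 0 of 10, beside 1.03%, 0.689% and 0.646% of all genes tested, and 0 genes of the whole table had an adjusted p under 0.05 by edgeR. DESeq2's Wald test gave 1 of the 10, Ikbke, an unadjusted p under 0.05 in SR-717 against H-151 and 0 in the others. It called 209 genes of the whole table in SR-717 against H-151, where edgeR called 107. By that Wald test 1 gene of the whole table, in SR-717 against H-151, had an adjusted p under 0.05. Paired by replicate number, the comparisons with PBS called 443 genes for SR-717 and 263 for H-151 in place of 73 and 60, with 0 of the 10 genes among them. The median log2 fold change of the 10 was 0.32 in SR-717 against H-151, 0.31 in SR-717 against PBS and -0.09 in H-151 against PBS, beside 0.02, 0.01 and -0.02 over all genes tested. Values were higher with SR-717 than with H-151 for 8 of the 10, beside 53.4% of all genes tested, higher with SR-717 than with PBS for 7, beside 52.2%, and higher with H-151 than with PBS for 3, beside 44.2%. With SR-717 replicate 1 left out, values were higher with SR-717 than with H-151 for 8 of the 10 (median 0.05) and higher than with PBS for 2 (median -0.065), beside 48.7% and 46.9% of all genes tested. Without PBS replicate 1, values were higher with H-151 than with PBS for 7 of the 10 (median 0.08), beside 48.9% of all genes tested. Each group enters 2 of these comparisons, so they are not independent of each other.

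Sting1, the adaptor that both compounds bind (chromosome 18, 35733679 to 35740554), was at 48.1, 41.9 and 30.1 CPM with H-151, 58.0, 36.5 and 31.6 CPM with PBS, and 89.6, 38.4 and 42.3 CPM with SR-717. The SR-717 group mean of 56.8 ± 28.5 CPM (SD, n = 3) rested on replicate 1, and its other libraries lay within the range of both other groups. The log2 fold change was 0.49 (SE 0.37, 95% interval -0.40 to 1.39) in SR-717 against H-151, 0.43 (SE 0.40, -0.53 to 1.40) in SR-717 against PBS and -0.07 (SE 0.28, -0.73 to 0.59) in H-151 against PBS, with edgeR adjusted p of 0.996, 1 and 1. Without SR-717 replicate 1, the value was 0.00 against H-151 and -0.06 against PBS, and H-151 against PBS gave 0.24 without PBS replicate 1. The intervals allow changes of more than 1.5-fold in either direction in H-151 against PBS and in the upward direction in the others.

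Cgas, the DNA sensor, was at 3.34, 2.86 and 4.45 CPM with H-151, 4.91, 2.66 and 2.53 CPM with PBS, and 5.68, 2.77 and 3.10 CPM with SR-717. The groups overlapped, and the log2 fold change was 0.11 (SE 0.36) in SR-717 against H-151, 0.19 (SE 0.43) in SR-717 against PBS and 0.08 (SE 0.35) in H-151 against PBS. Without SR-717 replicate 1 the value against H-151 turned to -0.28.

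Ikbke had the widest spread of the set. It encodes IKKε, a kinase downstream of STING that is induced in activated immune cells, and was at 17.8, 16.1 and 11.6 CPM with H-151, 43.1, 13.1 and 14.3 CPM with PBS, and 108, 18 and 15.2 CPM with SR-717. It had the largest log2 fold change of the 10 in SR-717 against H-151, at 1.63 (SE 0.79, 95% interval -0.28 to 3.53, edgeR unadjusted p = 0.082, adjusted p = 0.996). That value was 0.13 without SR-717 replicate 1. It met the thresholds for a call without SR-717 replicate 2 (2.01, edgeR unadjusted p = 0.0426, adjusted p = 0.983) and without SR-717 replicate 3 (2.05, edgeR unadjusted p = 0.0306, adjusted p = 0.694). It also met them in DESeq2's Wald test (1.64, unadjusted p = 0.0308, adjusted p = 1). The count of genes called over the whole table was larger by that test, and ranged widely with 1 library left out, as given below. The value was 1.01 (SE 0.89) in SR-717 against PBS, which became -0.50 without SR-717 replicate 1, and -0.63 (SE 0.48) in H-151 against PBS, which became 0.16 without PBS replicate 1.

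Tbk1, the main kinase of IRF3, was at 16.9, 14.5 and 17.2 CPM with H-151, 23.1, 15.0 and 15.8 CPM with PBS, and 35.0, 16.4 and 16.3 CPM with SR-717. Apart from the first replicates of SR-717 and PBS, all its libraries lay between 14.5 and 17.2 CPM. The log2 fold change was 0.47 (SE 0.33) in SR-717 against H-151, 0.33 (SE 0.37) in SR-717 against PBS and -0.15 (SE 0.21) in H-151 against PBS, and the first of these was 0.01 without SR-717 replicate 1.

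Irf3, the transcription factor at the end of the pathway, was the steadiest of the set, at 29.6, 33.8 and 32.7 CPM with H-151, 32.3, 42.7 and 37.3 CPM with PBS, and 38.0, 33.9 and 37.3 CPM with SR-717. It was the 1 gene of the 10 whose SR-717 and H-151 libraries did not overlap, higher with SR-717, where 2.67% of all genes tested did the same. The difference was small, with a log2 fold change of 0.17 (SE 0.12, 95% interval -0.12 to 0.47, edgeR adjusted p = 0.996), and it was 0.14 without SR-717 replicate 1. Against PBS the value was -0.04 (SE 0.16) for SR-717 and -0.22 (SE 0.15) for H-151.

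The enzymes that keep cytosolic nucleic acid low were both highest in SR-717 replicate 1. Samhd1, a phosphohydrolase that breaks down deoxynucleoside triphosphates, was at 163, 125 and 127 CPM with H-151, 169, 147 and 116 CPM with PBS, and 383, 167 and 134 CPM with SR-717. Its log2 fold change was 0.71 (SE 0.41, 95% interval -0.27 to 1.69, edgeR unadjusted p = 0.128) in SR-717 against H-151, 0.67 (SE 0.42) in SR-717 against PBS and -0.06 (SE 0.19) in H-151 against PBS. The first of these was 0.12 without SR-717 replicate 1, and it met the thresholds for a call without SR-717 replicate 3 (0.98, edgeR unadjusted p = 0.0409). Over the whole table, the count of genes called in that comparison ranged widely with 1 library left out, as given below. Trex1, the exonuclease that degrades cytosolic DNA before cGAS can bind it, was at 20.5, 15.9 and 14.0 CPM with H-151, 22.8, 20.3 and 13.3 CPM with PBS, and 41.0, 17.1 and 18.2 CPM with SR-717. Its groups overlapped, and its log2 fold change was 0.59 (SE 0.38) in SR-717 against H-151, 0.44 (SE 0.40) in SR-717 against PBS and -0.16 (SE 0.25) in H-151 against PBS. The first of these was 0.06 without SR-717 replicate 1.

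Slc19a1 and Lrrc8a, which act in the passage of cGAMP across membranes, were not highest in SR-717 replicate 1. The folate carrier Slc19a1, which can take up cyclic dinucleotides, was at 15.0, 15.7 and 13.3 CPM with H-151, 9.59, 18.2 and 15.1 CPM with PBS, and 11.2, 14.6 and 13.1 CPM with SR-717. Its log2 fold change was -0.19 (SE 0.17) in SR-717 against H-151, -0.14 (SE 0.28) in SR-717 against PBS and 0.04 (SE 0.25) in H-151 against PBS. Lrrc8a, the obligate subunit of the volume-regulated anion channels through which cGAMP can pass, was at 49.4, 55.3 and 53.0 CPM with H-151, 53.7, 66.5 and 50.8 CPM with PBS, and 38.9, 51.0 and 57.8 CPM with SR-717. It was lowest in SR-717 replicate 1, the library in which Sting1, Samhd1, Ikbke, Trex1, Tbk1 and Cgas had their highest CPM. The log2 fold change was -0.10 (SE 0.17), -0.21 (SE 0.21) and -0.12 (SE 0.14) in the same 3 comparisons, and the first was 0.04 without SR-717 replicate 1.

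Stim1, the calcium sensor of the endoplasmic reticulum that also holds STING there, was at 77.4, 88.7 and 79.4 CPM with H-151, 71.5, 100 and 53.6 CPM with PBS, and 71.6, 95.4 and 110 CPM with SR-717. Its log2 fold change was 0.16 (SE 0.18) in SR-717 against H-151, 0.30 (SE 0.28) in SR-717 against PBS and 0.13 (SE 0.23) in H-151 against PBS. Without SR-717 replicate 1 the first of these was 0.32 (edgeR unadjusted p = 0.0404), below 1.5-fold.

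**Figure D2:**
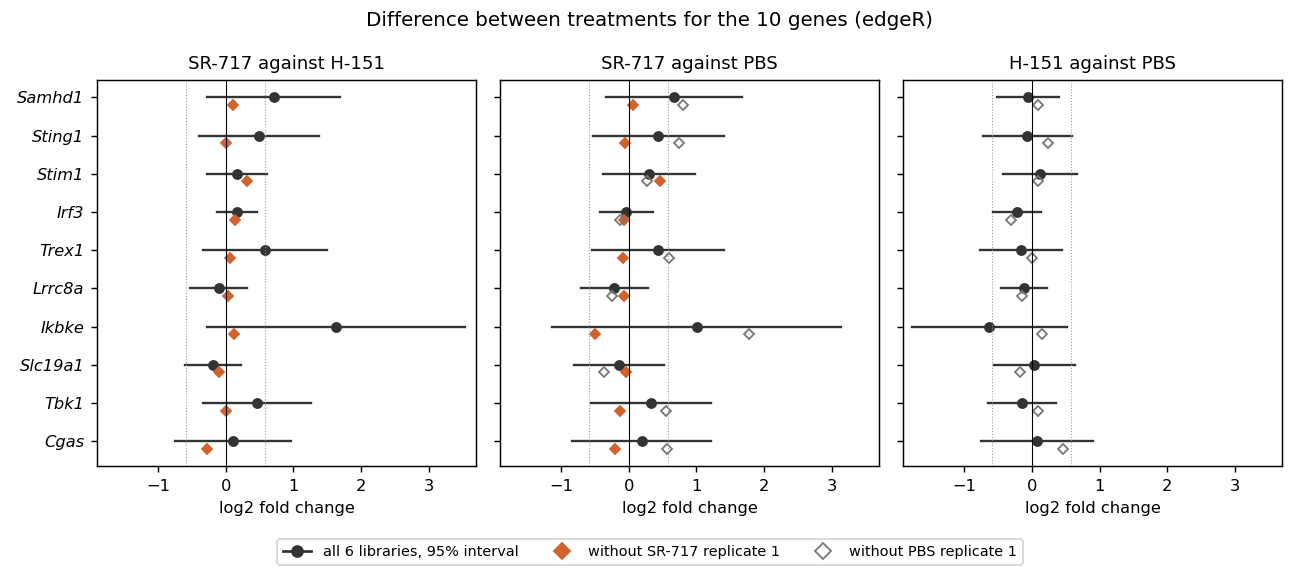
Log2 fold change of each gene in the 3 comparisons of treatments by edgeR, from all 6 libraries with bars for the 95% interval (filled circles), without SR-717 replicate 1 (filled diamonds) and without PBS replicate 1 (open diamonds), with dotted lines at 1.5-fold. Every interval crosses 0, and Ikbke in SR-717 against H-151 goes from 1.63 with all libraries to 0.13 without SR-717 replicate 1.

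The level of Sting1 was then set against the level of the 20 myeloid markers in the libraries, since STING is abundant in myeloid cells. This level was taken as a measure of myeloid content, and the share of other leukocytes in it was not tested. In bulk tissue, fewer cells of a type and less RNA per cell cannot be told apart. Each of the 20 myeloid markers was highest in SR-717 replicate 1, and none was at 0 in any library. Their summed level was 4600 to 5850 CPM with H-151, 4090 to 6890 CPM with PBS and 4920 to 14700 CPM with SR-717. Sting1 rose with the mean log2 level of these markers over the 9 libraries (Pearson's r = 0.952, exact permutation p = 0.000254, adjusted p = 0.00229 over 24 relations, and Spearman's rho = 0.867, exact permutation p = 0.00451, adjusted p = 0.0271). Per unit of log2 myeloid level, Sting1 changed by 0.64 log2 units. Without SR-717 replicate 1 and PBS replicate 1, the libraries farthest from the median, r was 0.784 (exact permutation p = 0.0371) and rho was 0.714 over 7 libraries. After each group was centred on its own mean r was 0.943, and after centring on both the group and the replicate number it was 0.749. These p-values take the libraries as independent, whereas same-numbered libraries of different groups deviated together, and the 3 replicate numbers as units would allow no permutation p below 0.167. The markers differed when taken singly. Their r with Sting1 ran from 0.716 (Cd68) to 0.981 (Itgam) over the 9 libraries. Without SR-717 replicate 1 it ran from 0.037 (Cd53) to 0.945 (Itgam), with Tyrobp at 0.276, Csf1r at 0.351 and Cd68 at 0.365.

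Samhd1 also rose with the myeloid level (r = 0.981, exact permutation p = 0.000132, adjusted p = 0.00229), and its r was 0.891 without the libraries farthest from the median. Ikbke (r = 0.961, exact permutation adjusted p = 0.00229) and Trex1 (r = 0.953, adjusted p = 0.00245) had 0.731 and 0.726 without these libraries (exact permutation p = 0.0613 and 0.0659), so that their relation no longer passed the test there. Their rho without these libraries was 0.786 and 0.714, beside 0.714 for Sting1, so that Sting1 was not set apart from them by rank. The r of Tbk1 (0.935, exact permutation adjusted p = 0.0136) and of Cgas (0.743, adjusted p = 0.0243) fell to 0.158 and 0.036, and these relations rested on the first replicates of SR-717 and PBS. The rho values were 0.883 for Samhd1, 0.9 for Ikbke and 0.867 for Trex1, each with an exact permutation adjusted p of 0.0271, and 0.567 for Tbk1 and 0.633 for Cgas, with adjusted p of 0.241 and 0.182.

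The other members of the set did not pass the adjusted test for this relation. Irf3 had r = 0.0189 (exact permutation adjusted p = 0.959), Stim1 r = -0.148 (adjusted p = 0.816), Slc19a1 r = -0.587 (adjusted p = 0.194) and Lrrc8a r = -0.756 (adjusted p = 0.0818), with rho of -0.183, -0.200, -0.450 and -0.367. In all, 5 of the 10 genes had an r of at least 0.9 with the myeloid level, beside 6.75% of the 14294 genes. Over the 7 libraries without the extremes, 4 of the 10 had an r of at least 0.7, beside 9.24% of all genes.

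**Figure D3:**
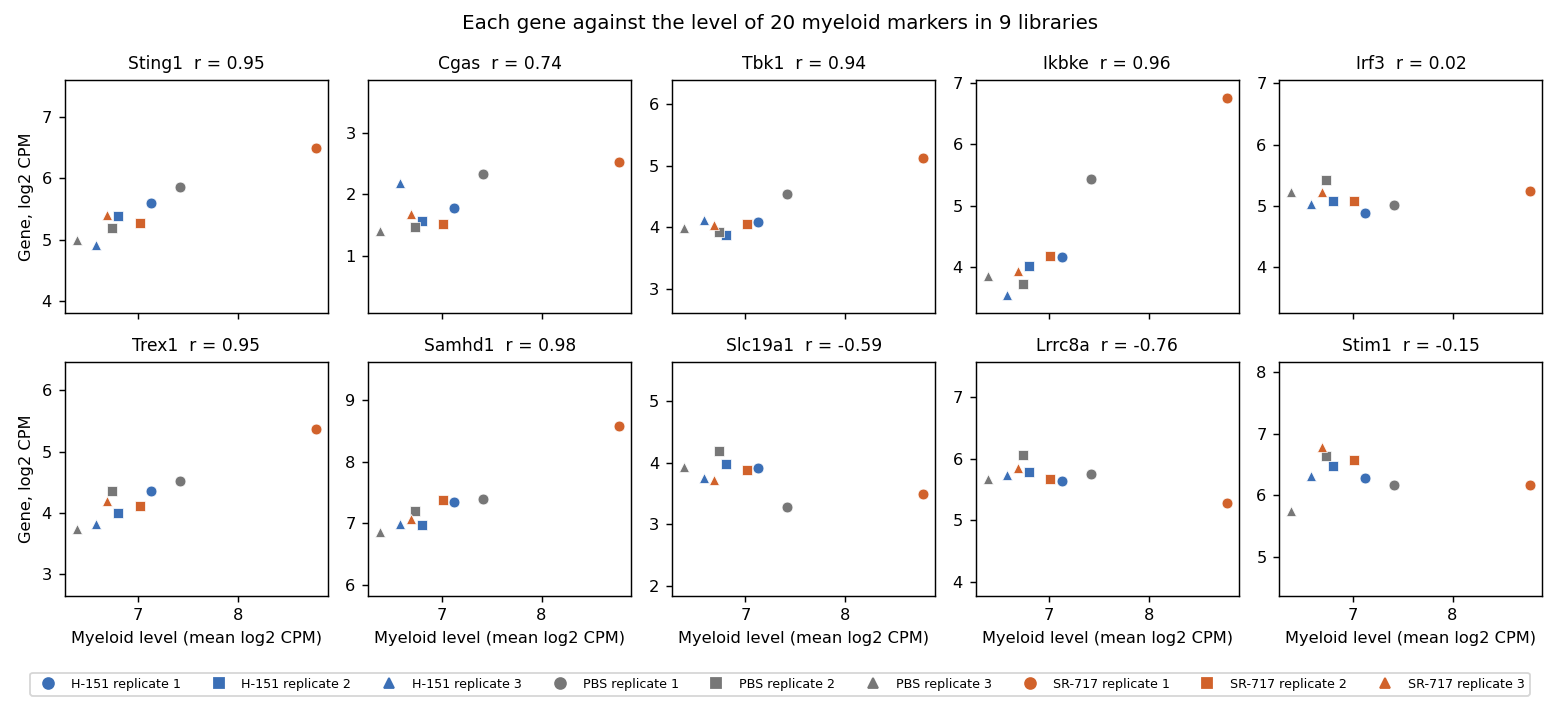
Log2 CPM of each of the 10 genes against the mean log2 CPM of the 20 myeloid markers, with 1 point per library (colour for the group, shape for the replicate) and Pearson's r over 9 libraries above each panel. Sting1 and Samhd1 rise along the whole range, with r of 0.784 and 0.891 over 7 libraries, while Lrrc8a and Slc19a1 are low at its right end.

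Sting1 was also set against the other marker lists. Among these it had r = 0.950 with 12 macrophage markers (exact permutation adjusted p = 0.00229, 0.853 without the 2 libraries farthest from the median), 0.859 with neutrophil markers (adjusted p = 0.0113, 0.683 without) and 0.904 with T and NK cell markers (adjusted p = 0.00942, 0.607 without). The macrophage list shares Csf1r and Cd68 with the myeloid list, so that its r is not a separate result. The r was -0.920 with osteoblast markers (exact permutation adjusted p = 0.00229, -0.830 without), -0.850 with chondrocyte markers (adjusted p = 0.0213, 0.052 without) and -0.782 with osteoclast markers (adjusted p = 0.0213, -0.765 without). The libraries left out were SR-717 replicate 1 with PBS replicate 1 for chondrocyte markers and with H-151 replicate 2 for osteoclast markers. For the macrophage, neutrophil, T and NK cell and osteoblast markers they were SR-717 replicate 1 and PBS replicate 3. The values without them are therefore not comparable between lists. The chondrocyte relation rested on SR-717 replicate 1 and PBS replicate 1. The neutrophil and the T and NK cell relations did not pass the test without their own extreme libraries either (exact permutation p = 0.098 and 0.144). The rho values in the same order were 0.783, 0.750, 0.717, -0.800, -0.600 and -0.783, with exact permutation adjusted p of 0.0591, 0.0765, 0.0983, 0.0591, 0.211 and 0.0591. For dendritic cells, B cells, erythroid cells, endothelium, fibroblasts, skeletal muscle, keratinocytes and adipocytes, r lay between -0.479 and 0.550 with adjusted p of 0.200 or more by exact permutation.

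Relative to the myeloid level, no difference in Sting1 between groups passed the test. The log2 level of Sting1 minus the myeloid level was -1.54, -1.41 and -1.66 with H-151, -1.56, -1.54 and -1.40 with PBS, and -2.29, -1.75 and -1.28 with SR-717. SR-717 thus held both the lowest and the highest library, the lowest being replicate 1, which had the highest Sting1 level of all. The subtraction treats Sting1 as changing by as much as the myeloid level, whereas its slope was 0.64 log2 units per log2 unit. A library with a high myeloid level is therefore set low by the subtraction itself, and the group differences share this limit. The difference between group means was -0.24 in SR-717 against H-151 (exact permutation p = 0.6), -0.28 in SR-717 against PBS (p = 0.5) and -0.04 in H-151 against PBS (p = 0.8), with an adjusted p of 0.8 for each, in a design whose smallest possible p is 0.1. When the myeloid level was a covariate in the edgeR fit of all 9 libraries, the log2 fold change in SR-717 against H-151 was -0.01 (SE 0.16) for Sting1, 0.12 (SE 0.22) for Ikbke, 0.14 (SE 0.12) for Samhd1, 0.08 (SE 0.16) for Trex1 and 0.02 (SE 0.16) for Tbk1. The value for Irf3 in that fit was 0.20 (SE 0.14), close to its 0.17 without the covariate.

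The genes most like Sting1 were found among 11398 genes with a mean of at least 5 CPM, by Pearson's r of log2 CPM over the 9 libraries. They were Il36g (r = 0.994), Sfxn5 (0.990), Lpcat2 (0.989), Fpr1 (0.988), Ugt1a6a (0.988), Sirpb1c (0.987), Sp140 (0.986), Ass1 (0.986), Ccl2 (0.986) and Il4ra (0.986). Fpr1 encodes a formyl peptide receptor of phagocytes, Ccl2 a chemokine that attracts monocytes, Il36g a cytokine and Il4ra a receptor chain for interleukin 4. Without SR-717 replicate 1 the 10 were Ccl2, Il36g, Ccl7, Sfxn5, Lpcat2, C1s1, Lonrf1, Ass1, Sirpb1c and Ugt1a6a, with r of 0.968 to 0.986, and 7 genes were on both lists. Within the set itself, Ikbke ranked 213 (r = 0.950), Trex1 256 (0.946), Samhd1 660 (0.898) and Tbk1 832 (0.877) in likeness to Sting1, while Irf3 ranked 5509, Stim1 5918, Slc19a1 9131 and Lrrc8a 9281. Sirpb1c and Ugt1a6a have near-identical copies or shared exons, so that their counts are uncertain.

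A wider list of 88 genes around the pathway gave no call either. Of these, 84 were tested and 0 were called by edgeR in each comparison. Over all genes tested, 0.756% were called in SR-717 against H-151, 0.519% in SR-717 against PBS and 0.426% in H-151 against PBS. A count of 0 in a list of this size is near those shares. The smallest unadjusted p of the list by edgeR was 0.0533, for Ccl5 in SR-717 against H-151. Among transcription factors and targets of STING signalling, 13 of 13 tested genes had a higher value with SR-717 than with H-151 (median log2 fold change 0.71), beside 53.4% of all genes tested. With H-151, 0 of 13 were higher than with PBS (median -0.47), beside 44.2%. With SR-717, 11 of 13 were higher than with PBS (median 0.32), beside 52.2%. Of the 13, 11 had their highest CPM in SR-717 replicate 1, beside 26.7% of the genes that passed the filter on low counts. When SR-717 replicate 1 was left out, the list had 4 of 13 values higher than with H-151 (median -0.05) and 2 of 13 higher than with PBS (median -0.50), beside 48.7% and 46.9% of all genes tested. Without PBS replicate 1, 10 of 13 were higher with H-151 than with PBS (median 0.08), beside 48.9% of all genes tested. Cxcl10, a chemokine that interferons induce, was at 7.75, 2.66 and 5.17 CPM with H-151, 27.6, 6.55 and 3.26 CPM with PBS, and 143, 5.35 and 4.73 CPM with SR-717. Nfkbia, the inhibitor of NF-κB that NF-κB itself induces and the most abundant gene of that list in TPM, was at 52.6, 41.2 and 54.5 CPM with H-151, 147, 47.1 and 42.6 CPM with PBS, and 333, 43.1 and 52.2 CPM with SR-717. Both genes were thus highest in SR-717 replicate 1 and next highest in PBS replicate 1, the libraries with the highest myeloid level, and the part of cell content in this was not tested. The r with the myeloid level was 0.949 for Cxcl10 and 0.922 for Nfkbia over the 9 libraries. Without these first replicates it was 0.540 and 0.096. Ifnb1, the interferon β gene that IRF3 activates, had 0 counts in all 9 libraries, which allows up to 0.129 to 0.177 CPM by counting error alone.

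Other handlers of cGAMP were not called in any comparison. Smpdl3a, an enzyme of the group that degrades cGAMP, was the most abundant gene of the import, export and hydrolysis list in TPM, at 88.0 ± 10.0 (SD, n = 9). Its SR-717 libraries, at 128, 107 and 94.8 CPM, lay above its PBS libraries, at 90.7, 75.6 and 86.8 CPM, as did those of 1.49% of all genes tested (log2 fold change 0.38, SE 0.17, edgeR adjusted p = 1). Enpp1, the main hydrolase of extracellular cGAMP and a regulator of bone mineral, was lower with SR-717, at 54.8, 85.8 and 89.8 CPM, than with PBS, at 94.0, 94.6 and 127 CPM, as were 2.26% of all genes tested (log2 fold change -0.45, SE 0.24, edgeR adjusted p = 1). Lrrc8d, of the same channel family as Lrrc8a, was at 26.8, 23.6 and 16.7 CPM with H-151, 30.0, 21.4 and 15.4 CPM with PBS, and 71.0, 23.1 and 21.8 CPM with SR-717. It was thus highest in SR-717 replicate 1, where Lrrc8a was lowest, and its r with the myeloid level was 0.987 over 9 libraries and 0.919 over 7. Enpp1 and Lrrc8d were named after their values were seen.

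Of the remaining lists, other cytosolic DNA sensors had a median log2 fold change of 0.16 in SR-717 against H-151, with 10 of 10 values higher with SR-717, beside 53.4% of all genes, and 7 of 10 higher (median 0.09) without SR-717 replicate 1. Some of the values were near 0, such as 0.003 for Ddx41 and 0.006 for Xrcc5. Against PBS, 8 of 10 were higher with SR-717, beside 52.2% of all genes. The medians were, for partners of TBK1 and the IKK complex, 0.22, for DNA and nucleotide clearance 0.14, for STING trafficking and turnover 0.04, for cGAS cofactors and regulators -0.01, and for cGAMP import, export and hydrolysis 0.07, beside 0.02 over all genes. In the same order, 10 of 13, 5 of 7, 14 of 24, 1 of 6 and 6 of 11 values were higher with SR-717. Without SR-717 replicate 1 the medians of these lists were, in the same order, 0.05, -0.04, -0.01, 0.03 and 0, beside -0.01 over all genes. In TPM, their most abundant genes were Ddx41 at 46.4 ± 5.29 (SD, n = 9), Ikbkb at 25.8 ± 4.51, Rnaseh2c at 43.1 ± 5.08, Ssr2 at 512 ± 80.8 and Banf1 at 157 ± 22.8, and none of these was called in any comparison. Trex2 and Slc46a2 had 0 counts in all 9 libraries.

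**Figure D4:**
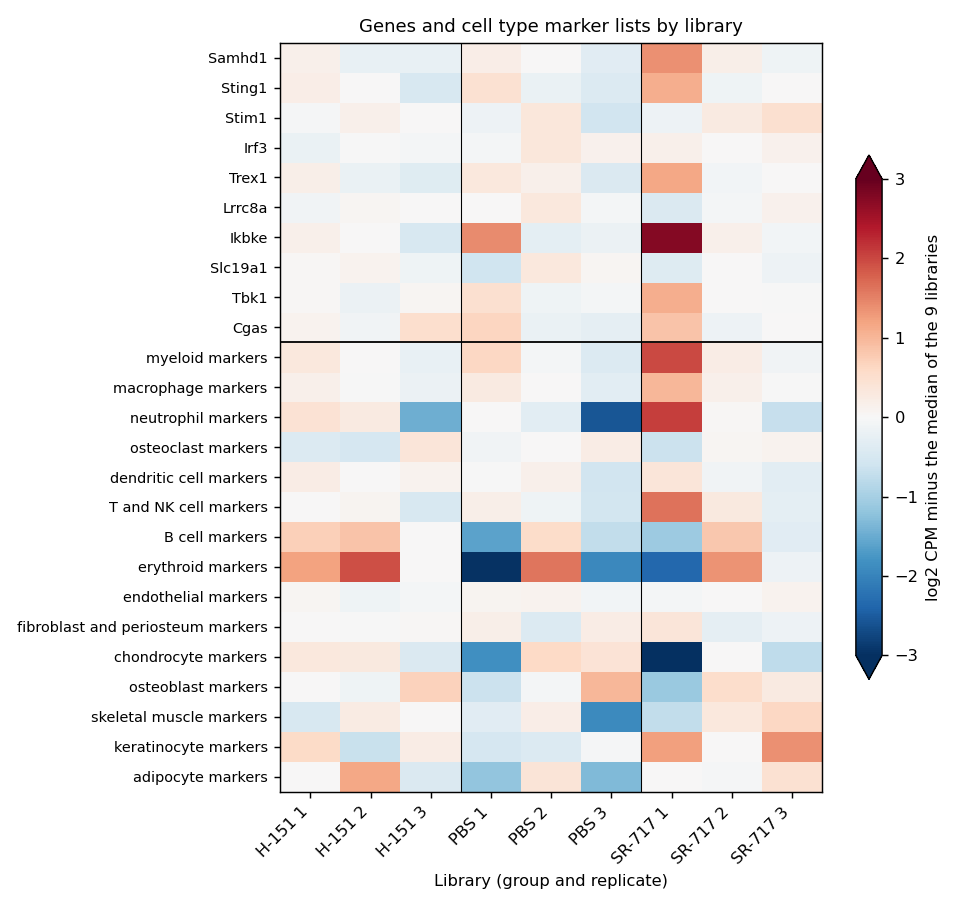
Log2 CPM of the 10 genes and the level of the marker lists in each library, each shown as its log2 difference from the median of the 9 libraries on a colour scale. SR-717 replicate 1 is high for 6 of the 10 genes and for the myeloid, neutrophil, macrophage and T and NK cell markers. The dendritic cell and fibroblast markers are also highest there, by a smaller margin. The same library is low for Lrrc8a and for the chondrocyte and osteoblast markers.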

How the data were processed

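RNA-seq of callus was analysed from a table of all genes. Its values, as the authors deposited them, are expected counts that were not normalized and TPM, which they had scaled for gene length. Per the labels, libraries were strand-specific and poly(A) selected, although the extraction text speaks of cell lines. The submitters' processing notes name mm10. Aligner, counting program and annotation are not given in the sources used here. The 30 rows without a symbol held 4.14e-05% of counts.

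The 10 genes and the gene lists were chosen with earlier results of these data known. Expected counts, of which 3168 genes had some that were not whole, were rounded. Pairs of groups, 6 libraries at a time, were tested by edgeR 4.0.16 under R 4.3.3 with filterByExpr, TMM and the quasi-likelihood test, with Benjamini-Hochberg adjustment over all genes. A call needed an unadjusted p under 0.05 and 1.5-fold, thresholds that the study states. SE were derived from the F statistic. CPM were scaled by TMM over 9 libraries, and levels of lists are means of log2 CPM with a prior count of 2. Correlations used all 362880 pairings, two-sided on the absolute r, and group differences two-sided exact permutation. Scripts were tested on simulated data. Alternatives were DESeq2 1.42.0 (Wald test and size factors), no filter, 9 libraries in 1 fit, a replicate block, the myeloid level as a covariate and each library left out. Same-numbered libraries deviated together from their group means in SR-717 and PBS (r of 0.675, 0.371 and 0.139) and in H-151 and PBS (0.328, 0.528 and 0.532), by the data and not the labels, which do not say what the numbers mark. No pair of libraries agreed within sampling noise (chi-square per gene of at least 24.7 over 36 pairs).

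Positions come from GENCODE M21, where 21964 of 22054 identifiers matched. Named were the 10 genes, genes of the pathway lists that were called or most abundant in TPM, and the 10 genes most like Sting1. Other genes were chosen after their values were seen. Intervals for counts of 0 cover counting error only.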

Additional observations from a re-analysis of the deposited data

How the results depend on the processing

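The count of 107 genes called in SR-717 against H-151 was 209 by DESeq2's Wald test, 223 with no filter, 171 with 9 libraries in 1 fit and 64 to 660 with 1 library left out. The count of 73 in SR-717 against PBS was 138, 194 and 176 under the same 3 settings, 247 with the myeloid level as a covariate and 95 to 319 with 1 library left out. The count of 60 in H-151 against PBS was 127 with no filter, 121 with the covariate and 43 to 698 with 1 library left out. With a replicate block the counts were 143, 443 and 263, of which 54, 65 and 51 genes were also called without it. In SR-717 against H-151 same-numbered libraries had r of 0.359, 0.069 and 0.085, so the numbers are not shown to pair these samples. The block gave Sting1 0.41, 0.37 and -0.05, Ikbke 1.03, 0.63 and -0.44 and Samhd1 0.57, 0.53 and -0.05 in the 3 comparisons, and it changed no call of the 10 genes. Over all libraries, 11 of 18 matches of a library to another group were best at its own number. With the myeloid covariate 9 log2 fold changes turned direction: in SR-717 against H-151 Sting1 (-0.0062), Cgas (-0.30) and Lrrc8a (0.0284), and in SR-717 against PBS Sting1 (-0.043), Cgas (-0.16), Tbk1 (-0.0918), Ikbke (-0.33), Trex1 (-0.0693) and Slc19a1 (0.0077). None of these values was called in either fit.

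With 1 library left out, values changed direction over these ranges: in SR-717 against H-151 Cgas -0.28 to 0.30 and Lrrc8a -0.23 to 0.0412. In SR-717 against PBS the ranges were -0.0596 to 0.74 for Sting1, -0.20 to 0.57 for Cgas, -0.14 to 0.55 for Tbk1, -0.50 to 1.78 for Ikbke, -0.14 to 0.0607 for Irf3, -0.091 to 0.65 for Trex1 and -0.36 to 0.0668 for Slc19a1. In H-151 against PBS they were -0.24 to 0.24 for Sting1, -0.12 to 0.46 for Cgas, -0.25 to 0.08 for Tbk1, -0.91 to 0.16 for Ikbke, -0.36 to 0.0076 for Trex1, -0.19 to 0.0836 for Samhd1, -0.17 to 0.26 for Slc19a1, -0.19 to 0.0202 for Lrrc8a and -0.0677 to 0.40 for Stim1. Sting1 relative to the myeloid level ranged from -0.48 to 0.024 in SR-717 against H-151 and from -0.10 to 0.025 in H-151 against PBS, and was 0.033 in SR-717 against H-151 with macrophage markers in place of myeloid ones. The cause of these changes was not tested. With 3 libraries a group, intervals of most of the 10 genes allow changes of 1.5-fold, and Cgas rested on 45 to 110 counts. The relation of Sting1 to the myeloid level without SR-717 replicate 1 and PBS replicate 1, tried after the data were seen, stayed positive.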

Other observations

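Ifit1 and Ifit3, which interferons induce, were higher in PBS replicate 1 than in SR-717 replicate 1, while Isg15, Irf7, Rsad2, Oasl1, Ifit2 and Cxcl10 had SR-717 replicate 1, PBS replicate 1 and H-151 replicate 1 as their highest libraries in that order, the order of Sting1. Ifit1 was at 12.4 CPM in PBS replicate 1 and 11.3 CPM in SR-717 replicate 1, and at 1.33 to 3.97 CPM in the other 7 libraries. Ifit3 was at 59.6 CPM in PBS replicate 1 and 43.3 CPM in SR-717 replicate 1, beside 14.6 to 28.9 CPM elsewhere. Ccl5, a chemokine of T cells and macrophages, had 54.6 CPM in SR-717 replicate 1 and at most 5.82 CPM in any other library, while Sting1 differed between the same first replicates of SR-717 and PBS by 89.6 against 58.0 CPM. These genes were chosen after their values were seen, and none was called in any comparison by edgeR.

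Among other DNA sensors, Zbp1 had 81.6 CPM in SR-717 replicate 1, 30.2 CPM in PBS replicate 1 and 6.69 to 18.6 CPM in the other 7, and Aim2 had 10.8, 6.11 and 1.61 to 2.99 CPM. Xrcc5 and Xrcc6, which encode the Ku subunits that bind DNA ends, were lowest in SR-717 replicate 1, at 9.09 and 19.2 CPM, beside 9.64 to 17.8 and 20.8 to 27.7 CPM elsewhere. These genes too were chosen after their values were seen.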
